A study of Mus musculus with 47 samples.

Results

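Heterozygous Q140 mice were compared with wild type mice in the striatum, in animals that carried both intact copies of Ccdc82. The comparison takes 16 of the 47 libraries of the series, namely those titled Het (Q140) KI or WT without a Ccdc82 cross, with 8 libraries per genotype and 4 females and 4 males in each. Q140 is a knock-in (KI) allele of the mouse Huntington's disease gene Htt, so the lengthened glutamine tract sits in a protein made from the gene's own locus rather than from a transgene. All mice were on a C57BL background and 6 months old, and the labels name no treatment and no other allele in these 2 groups. The tissue is given as corpus striatum, RNA was prepared with Qiagen RNeasy, and libraries with the stranded TruSeq protocol of Illumina.

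Huntington's disease follows from an expanded CAG repeat in HTT, and the striatum is the brain region it strikes first. Most striatal neurons are medium spiny neurons, GABA-releasing projection neurons whose firing is set by cortical and thalamic glutamate, by dopamine, and by the cAMP and calcium signals that these receptors start inside the cell. Mutant huntingtin forms aggregates and is known to alter transcription in these neurons. The loss of their marker mRNAs in Htt knock-in mice is well known, and the account here turns to the other gene classes.

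Of 19193 genes tested, 6655 passed a Benjamini-Hochberg adjusted p of 0.05 in edgeR, which is 34.7% of them. In Q140, 3485 genes were higher (18.2%) and 3170 lower (16.5%). Scaling by total counts alone gave 5933 higher and 2134 lower, so the balance of the 2 directions depends on the scaling. Changes are given on the log2 scale as Q140 minus wild type, each ± its standard error (SE), and levels as CPM, counts relative to the library's total after TMM scaling, with the median of the 8 libraries of a group followed by the lowest and highest in brackets. The median absolute change of the genes that passed was 0.195, and 958 of them changed by at least 0.5, 329 upward and 629 downward. In 902 genes (4.7% of those tested) all 8 Q140 libraries lay above all 8 wild type libraries, and in 974 (5.07%) they lay below. Most genes below were named for a small p or a large change in these same libraries. Their lack of overlap follows in part from that choice and is a description, not separate support.

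The series holds 2 further sets of mice in which Q140 can be set against a control, labelled Ccdc82+/- and Ccdc82-/-, and neither set shares a library with the 16 described here. Of the 6655 genes, 97.9% had the same sign on Ccdc82+/- and 98.0% on Ccdc82-/-. The same call was made for 5041 on Ccdc82+/-, which is 75.7% of the genes called here and 74.9% of those called there, where 35.0% of all genes passed. On Ccdc82-/- the same call was made for 4883, or 73.4% and 76.7% of the 2 lists, where 33.2% of all genes passed. In 4434 genes (66.6%) the call was the same in all 3. The difference of the Q140 effect between Ccdc82+/- and intact Ccdc82 passed for 0 genes in edgeR (1011, or 5.27%, at an unadjusted p under 0.05, 1 past the adjusted threshold in DESeq2), and that between Ccdc82-/- and intact for 0 genes (826, or 4.3%, unadjusted, 0 in DESeq2). The difference between females and males also passed for 0 of 19714 genes in edgeR, with 1640 (8.32%) at an unadjusted p under 0.05 and 2 past the adjusted threshold in DESeq2.

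Total counts were 41.3 to 50.1 M per wild type library and 43.8 to 61.7 M per Q140 library. Htt lay at 216 CPM (207 to 229.8) in wild type and 197 (183 to 219.8) in Q140, overlapping ranges with a change of -0.13 ± 0.029 (adjusted p = 4.62e-04) that did not pass in females alone (adjusted p = 0.104). Ccdc82 lay at 12.3 CPM (10.6 to 12.9) and 11.6 (10.1 to 12.8), a change of -0.046 ± 0.065 (adjusted p = 0.624). The share of counts from the mitochondrial genome was 5.71% ± 0.131 (SD, n = 8) for wild type mice and 6.03% ± 0.112 (SD, n = 8) for Q140 mice (two-sided exact permutation p = 9.32e-04). In the 4 females per group alone the exact permutation p was 0.0857, and in the males 0.0286, the smallest that 4 against 4 can give. Of 48 medium spiny neuron markers 39 fell and 4 rose, with a median of -0.42. Of 14 astrocyte markers 7 fell and 1 rose, with a summed level of 6206 to 6812 CPM in wild type and 5629.7 to 6017 in Q140. The largest part of that sum is Slc1a2 (a median of 3074 CPM in wild type and 2681 in Q140). The mean log2 CPM of the astrocyte list overlapped between the groups (7.16 to 7.40 in wild type and 7.00 to 7.30 in Q140). Of 15 oligodendrocyte, 15 microglia and 17 endothelial and mural markers 5, 6 and 8 fell and 0 rose, and their summed levels overlapped between the groups. The falls were 3 among oligodendrocyte markers without any 1 of 9 libraries, 3 among microglia without Q140 female 3, and 4 among endothelial and mural markers without wild type female 1. The 12 markers of cortical excitatory neurons summed to 129 to 143 CPM in wild type and 149 to 174 in Q140, 3 of them rising and 3 falling, with a list median of -0.25. Most of that sum is Lamp5 (a median of 97.6 CPM in wild type and 116 in Q140), while Slc17a7, the vesicular glutamate transporter of these neurons, was lower (-0.74, adjusted p = 0.0254) and highest in wild type male 1 (7.11 CPM against a wild type median of 2.80). Markers of ependymal cells, fibroblasts and blood gave 0 calls in edgeR, 0 at an unadjusted p under 0.05 and 0 in DESeq2. The choroid plexus marker Ttr reached 42.2 CPM in wild type male 1 against a wild type median of 8.15. Q140 male 1 was the lowest Q140 library for 10 of 10 ependymal markers and 14 of 16 markers of cycling cells and neuroblasts, such as Mki67 at 0.177 CPM against a Q140 median of 4.67, and without it 6447 genes passed. By the well addresses, 4 of 8 wild type and 0 of 8 Q140 libraries lay in plate column 4. Plate column 1 in turn held Q140 libraries (females 1 and 4, and male 3) but not wild type. With plate column as a term 5755 genes passed, 5424 of them among the 6655 (81.5%). In whole tissue, fewer cells of a type and less RNA per cell cannot be told apart, and the part these markers and the mitochondrial share have in the results below was not tested.

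**Figure D1:**
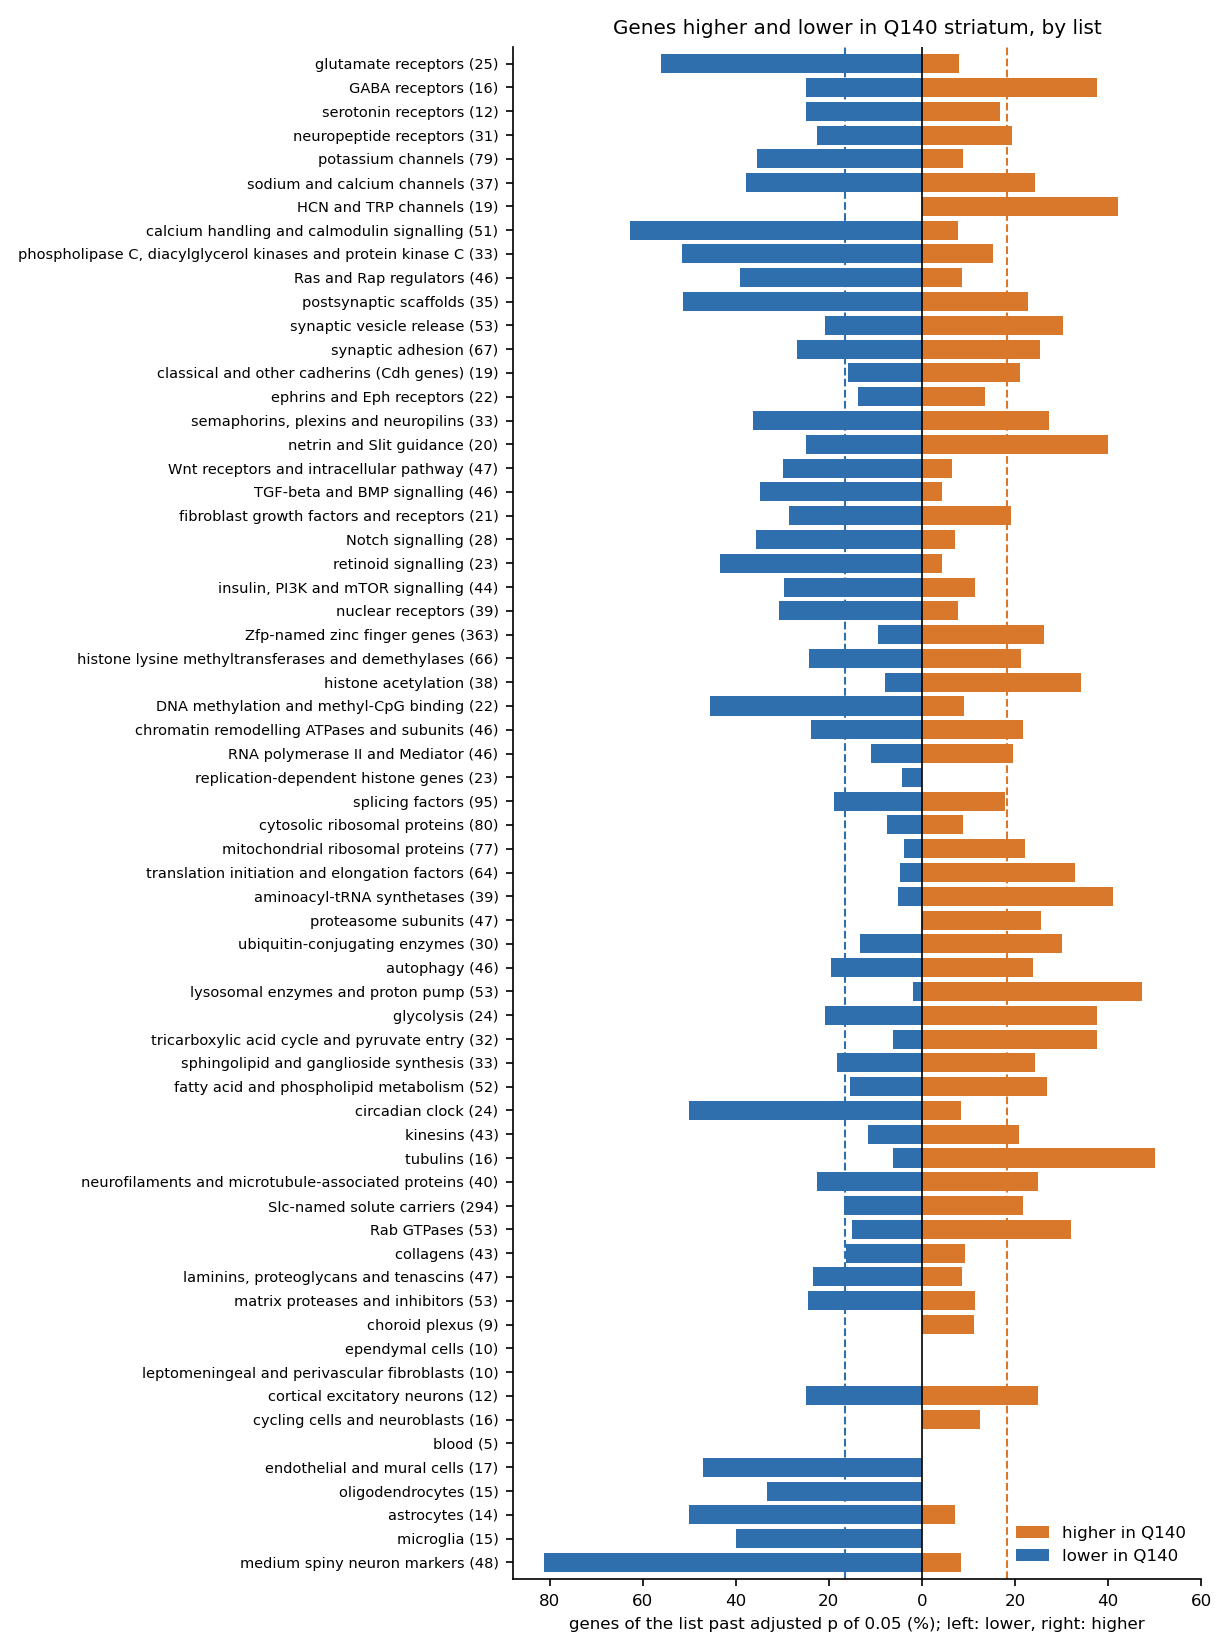
Share of the tested genes of each list that were higher (right, orange) or lower (left, blue) in Q140 than in wild type striatum at an adjusted p of 0.05, in percent, with the number of genes tested in brackets. Dashed lines mark the shares over all 19193 genes, 18.2% higher and 16.5% lower. They are not matched to the level of a list's genes. In the most abundant of 5 equal groups of protein-coding genes 21.7% were higher and 34.8% lower. Calcium handling (62.7% lower), glutamate receptors (56.0%) and the genes of phospholipase C and protein kinase C (51.5%) extend furthest to the left among the lists of pathways, and lysosome (47.2% higher), tubulins (50.0%) and HCN and TRP channels (42.1%) furthest to the right.

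The genes described next rose with the smallest p outside the medium spiny neuron markers. Stmn2 (ENSMUSG00000027500, GRCm38 chromosome 3, 8509360 to 8561606) encodes stathmin 2, a tubulin-binding protein of growing and regenerating axons. Wild type libraries held 60.5 CPM (55.2 to 64.9) and Q140 libraries 101 (93.4 to 106). The groups did not overlap, and the rise of 0.74 ± 0.034 (adjusted p = 5.82e-23) had the smallest p of all genes that rose outside the medium spiny neuron markers. Gprasp2 (ENSMUSG00000072966, GRCm38 chromosome X, 135839034 to 135844730) encodes a protein that sorts G protein-coupled receptors after they are taken into the cell. Its level was 106 CPM (97.0 to 110.5) in wild type and 155 (142 to 160.1) in Q140, again without overlap, a change of 0.55 ± 0.029 (adjusted p = 5.81e-21). Syp (ENSMUSG00000031144, GRCm38 chromosome X, 7638471 to 7653256) encodes synaptophysin, an abundant membrane protein of synaptic vesicles. It stood at 460.2 CPM (447 to 492) against 662 (635 to 681), and every Q140 library was above every wild type library (0.51 ± 0.029, adjusted p = 1.94e-19).

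Sfmbt2, a gene of the Polycomb group, whose proteins keep chromatin silent, was also among them and rose from 2.27 CPM (2.13 to 3.08) to 8.77 (6.64 to 11.1) without overlap. Cell surface and signalling genes made up most of the others. Cntn6, a contactin of the neuronal surface, rose by 0.49, Fat1, a giant cadherin, by 0.71, the protocadherin gene Pcdh20 by 1.44, Gng3, a G protein gamma subunit, by 0.55, and Nell2, a secreted guidance ligand of Robo3, by 0.43. Nagk, a kinase that salvages N-acetylglucosamine, rose by 0.62, and Sh3bgrl by 0.45. The 8 libraries of each group did not overlap for any of these 7 genes, which were picked for their small p in the same libraries.

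**Figure D2:**
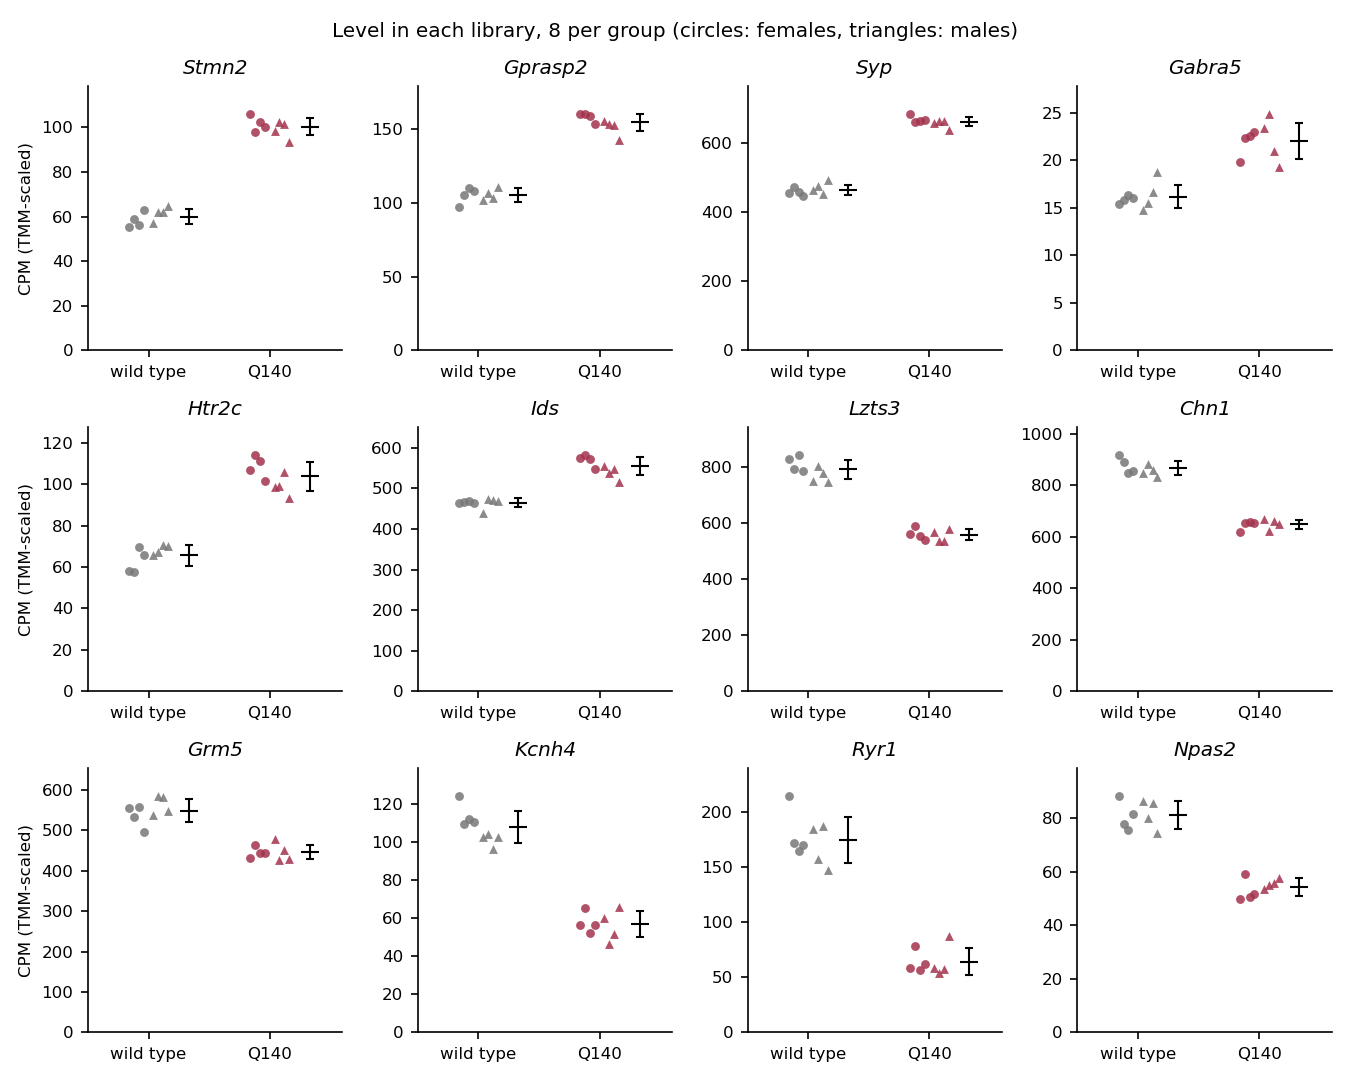
CPM in each of the 16 libraries for 12 genes (6 higher and 6 lower in Q140), each on its own linear axis that starts at 0; circles are females, triangles are males, and the bar is the group mean with 1 SD. For all 12 genes every Q140 library lies on one side of every wild type library, and the genes were picked for their change in these same libraries.

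The genes that fell with the smallest p were led by Plk5 (ENSMUSG00000035486, GRCm38 chromosome 10, 80356459 to 80365489), a brain-expressed member of the polo-like kinase family. Wild type libraries held 40.1 CPM (35.7 to 44.4) and Q140 libraries 11.4 (10.4 to 13.3), 29.3% of the wild type mean, with no overlap. Lzts3 (ENSMUSG00000037703, GRCm38 chromosome 2, 130632839 to 130642803), which encodes a scaffold of the postsynaptic density that binds Shank proteins, fell from 790.2 CPM (747 to 841) to 557 (535 to 587), a change of -0.50 ± 0.024 (adjusted p = 3.95e-22). Chn1 (ENSMUSG00000056486, GRCm38 chromosome 2, 73610660 to 73775346) encodes chimaerin 1, which switches off the GTPase Rac and steers axons and spines. It stood at 857 CPM (830.5 to 916) in wild type and 653 (619 to 669) in Q140, a change of -0.42 ± 0.021 (adjusted p = 3.03e-21). Bcr, another Rac regulator of the synapse, fell from 624 CPM (591 to 671) to 452 (438 to 480.3), a change of -0.45 ± 0.024 (adjusted p = 6.33e-21), and Git1, an Arf GTPase activator of dendritic spines, from 345 CPM (319 to 377) to 239 (229 to 245), a change of -0.53 ± 0.031 (adjusted p = 3.92e-19). Neither gene's groups overlapped. Zbtb18 (ENSMUSG00000063659, GRCm38 chromosome 1, 177442351 to 177450764), a transcriptional repressor needed for neuronal differentiation, went from 166 CPM (154 to 178) to 109 (103 to 114), a change of -0.61 ± 0.031 (adjusted p = 2.74e-21), also without overlap. Atf6, a transcription factor of the unfolded protein response, fell by 0.44, the phosphatase regulatory subunit gene Ppp4r4 by 0.65, Ankrd35 by 1.50, the focal adhesion gene Tns1 by 0.53, and Slmap, a membrane anchor of a kinase and phosphatase complex, by 0.40. The groups did not overlap in any of these 5 genes.

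Promoter windows of genes from both directions are shown because cAMP-driven transcription through the cAMP response element is a main route of gene control in medium spiny neurons. The windows, from RefSeq on GRCm38.p6, run from 250 bases before to 50 after the transcription start and are written 5' to 3' on the gene's strand. Capitals mark the palindromic element TGACGTCA. The first 4 belong to the genes with the smallest p among those lower in Q140 that hold it, and the last 2 to the genes with the smallest p among those higher in Q140 that have a window in the table, whether or not they hold the element.
Gpm6b, chrX:166238693-166238992 (+ strand): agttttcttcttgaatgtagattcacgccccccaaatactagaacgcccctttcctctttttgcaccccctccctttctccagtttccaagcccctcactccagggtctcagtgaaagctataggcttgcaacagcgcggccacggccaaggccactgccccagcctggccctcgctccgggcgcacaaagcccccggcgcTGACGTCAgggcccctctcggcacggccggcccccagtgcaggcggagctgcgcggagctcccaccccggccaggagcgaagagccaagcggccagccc
Gpr6, chr10:41072241-41072540 (- strand): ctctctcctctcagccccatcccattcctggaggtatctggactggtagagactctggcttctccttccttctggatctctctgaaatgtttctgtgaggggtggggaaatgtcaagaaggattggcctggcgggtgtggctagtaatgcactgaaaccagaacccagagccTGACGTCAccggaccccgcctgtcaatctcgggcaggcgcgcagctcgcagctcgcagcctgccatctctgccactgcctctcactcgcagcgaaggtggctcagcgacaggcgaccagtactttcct
Kif17, chr4:138262001-138262300 (+ strand): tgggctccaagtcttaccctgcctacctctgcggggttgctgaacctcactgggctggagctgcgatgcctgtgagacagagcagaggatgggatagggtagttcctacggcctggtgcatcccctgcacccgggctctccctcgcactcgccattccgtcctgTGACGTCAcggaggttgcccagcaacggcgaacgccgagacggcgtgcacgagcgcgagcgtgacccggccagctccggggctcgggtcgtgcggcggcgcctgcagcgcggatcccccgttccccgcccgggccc
Ppp1r12c, chr7:4501631-4501930 (- strand): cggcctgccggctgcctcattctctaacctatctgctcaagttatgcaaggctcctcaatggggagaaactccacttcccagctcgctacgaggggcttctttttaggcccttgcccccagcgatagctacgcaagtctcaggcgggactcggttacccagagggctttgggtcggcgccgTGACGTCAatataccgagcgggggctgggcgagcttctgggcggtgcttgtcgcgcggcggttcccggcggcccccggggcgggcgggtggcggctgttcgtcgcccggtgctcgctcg
Gprasp2, chrX:135838784-135839083 (+ strand): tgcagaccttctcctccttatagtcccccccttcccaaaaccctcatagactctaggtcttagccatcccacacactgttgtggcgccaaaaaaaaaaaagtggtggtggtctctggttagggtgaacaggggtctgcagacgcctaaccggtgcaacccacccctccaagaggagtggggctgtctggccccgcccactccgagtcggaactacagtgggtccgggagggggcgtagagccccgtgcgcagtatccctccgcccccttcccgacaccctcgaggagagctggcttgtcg
Syp, chrX:7638330-7638629 (+ strand): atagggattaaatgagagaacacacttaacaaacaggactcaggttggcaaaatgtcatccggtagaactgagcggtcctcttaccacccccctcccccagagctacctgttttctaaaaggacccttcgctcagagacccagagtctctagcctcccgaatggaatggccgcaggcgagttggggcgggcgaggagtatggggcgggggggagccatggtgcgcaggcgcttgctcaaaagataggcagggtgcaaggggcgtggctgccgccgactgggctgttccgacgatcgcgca
The element starts 49 bases before the RefSeq transcription start in Gpm6b, 78 in Gpr6, 86 in Kif17 and 69 in Ppp1r12c. The Kif17 window lies inside the GENCODE gene (138250435 to 138301967), so the 2 annotations place its start differently. Because the first 4 genes were picked for holding it and the last 2 were not, these windows do not compare the directions. Gpm6b, which encodes a neuronal and glial membrane glycoprotein, fell by 0.35, the orphan receptor gene Gpr6 by 0.59, and Ppp1r12c, a myosin phosphatase subunit, by 0.33. Kif17 is described with the kinesins. Over 12328 tested genes with a window, the element (in either strand's reading) was present in 3.41%, in 4.35% (95% Wilson interval 3.62 to 5.22) of those higher in Q140 and in 3.35% (2.66 to 4.20) of those lower. The Egr motif GCGTGGGCG was present in 1.30% of all windows, 1.56% of those of higher genes and 1.37% of those of lower genes. For the AP-1 motif TGANTCA the shares were 6.36%, 5.38% and 6.08%. Matches of the 3 motifs cannot share bases. These are matches of letters in a short window and say nothing of binding.

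Receptors for glutamate, the transmitter of the cortical and thalamic inputs, mostly fell. Of 25 genes tested, 14 fell (56.0%), 2 rose and 9 did not pass, with a median of -0.17 against -0.00051 over all genes. Grik2 (ENSMUSG00000056073, GRCm38 chromosome 10, 49094833 to 49788766), the kainate receptor subunit GluK2, fell from 184 CPM (169 to 191) to 128 (119 to 134), a change of -0.51 ± 0.034 (adjusted p = 2.60e-17). Grm5, a metabotropic receptor that acts through phospholipase C, went from 551 CPM (496 to 584) to 444 (426 to 479), a change of -0.30 ± 0.031 (adjusted p = 2.90e-11). The groups overlapped in neither gene. Grm4, a presynaptic group III receptor, fell by 0.35. Its relative Grm8 rose by 0.44 from a low level, with overlapping groups (7.65 CPM (5.85 to 10.1) against 10.1 (8.52 to 12.8)), and did not pass in females alone (adjusted p = 0.0690).

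GABA-A receptor subunits, which carry inhibition between medium spiny neurons and from interneurons, moved in both directions. Of 16 genes 6 rose and 4 fell. Gabrd (ENSMUSG00000029054, GRCm38 chromosome 4, 155384980 to 155398112), the delta subunit of receptors outside synapses, fell from 148 CPM (137 to 159) to 104 (93.9 to 117), a change of -0.49 ± 0.039 (adjusted p = 2.00e-14) without overlap. Gabra5, an alpha subunit, rose from 15.9 CPM (14.7 to 18.8) to 22.4 (19.3 to 24.8), a change of 0.44 ± 0.071 (adjusted p = 1.91e-06) without overlap, and Gabrb2 rose by 0.26. Among 12 serotonin receptor genes 2 rose (16.7%, near the 18.2% over all genes) and 3 fell (25.0%, against 16.5%). Htr2c (ENSMUSG00000041380, GRCm38 chromosome X, 146962513 to 147197277), a receptor coupled to phospholipase C, rose from 66.6 CPM (57.6 to 70.6) to 104 (93.1 to 114), a change of 0.66 ± 0.054 (adjusted p = 1.47e-13) without overlap, and Htr2a by 0.43. Htr1b, the inhibitory receptor on medium spiny neuron terminals, fell by 0.35 and Htr6 by 0.31, each with overlapping groups, and Htr1b did not pass in males alone (adjusted p = 0.491). Of 31 neuropeptide receptor genes 6 rose (19.4%, near the 18.2% over all genes) and 7 fell (22.6%, against 16.5%), but 6 and 5 with total-count scaling. The delta opioid receptor gene Oprd1, whose ligand enkephalin is made by medium spiny neurons, fell by 0.32, while the neuropeptide Y receptor gene Npy1r rose by 0.40 and the oxytocin receptor gene Oxtr, near 1.13 CPM in wild type, by 0.81.

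Potassium channels, which set the resting potential and spike pattern, fell more often than they rose. Of 79 tested genes 28 fell (35.4%) and 7 rose. Kcnh4 (ENSMUSG00000035355, GRCm38 chromosome 11, 100740376 to 100759942), a voltage-gated channel of the Elk family, stood at 107 CPM (96.3 to 124) in wild type and 56.3 (46.5 to 65.9) in Q140, a change of -0.92 ± 0.060 (adjusted p = 1.48e-16), 52.8% of the wild type mean. Its relative Kcnh3 fell from 185 CPM (179.8 to 199.7) to 129 (124 to 141), a change of -0.51 ± 0.029 (adjusted p = 1.99e-19), and Kcnab1, an accessory subunit of Shaker-type channels, from 604 CPM (546 to 628) to 419 (383 to 450.3), a change of -0.50 ± 0.032 (adjusted p = 1.10e-17). No groups overlapped in these 3. Against that direction, the modifier subunit gene Kcng1 rose from 44.0 CPM (36.1 to 46.4) to 75.6 (67.8 to 89.2), a change of 0.82 ± 0.060 (adjusted p = 5.59e-15) without overlap and Kcnj3, a subunit of G protein-gated channels, by 0.36.

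Of 37 sodium and calcium channel genes 14 fell and 9 rose. Scn4b (ENSMUSG00000046480, GRCm38 chromosome 9, 45138395 to 45154152), the sodium channel beta 4 subunit that is prominent in medium spiny neurons and also among their markers here, fell from 2676 CPM (2513 to 2925) to 1246 (1034 to 1555), a change of -1.06 ± 0.062 (adjusted p = 1.10e-17). Cacna1e, the R-type calcium channel, fell from 768 CPM (736 to 838) to 557 (535 to 632), a change of -0.44 ± 0.039 (adjusted p = 5.39e-13), and its accessory genes Cacna2d3 and Cacnb3 by 0.28 and 0.36. Scn3b, another beta subunit, rose by 0.26 with no overlap. Of 19 genes of HCN and TRP cation channels 8 rose, against 18.2% higher over all genes, and 0 fell in edgeR (2 at an unadjusted p under 0.05, and 1 past the adjusted threshold in DESeq2). Among them were the pacemaker channel gene Hcn3 at 0.34 ± 0.052 (adjusted p = 8.77e-07) and Trpv2 at 0.34 ± 0.049 (adjusted p = 1.50e-07).

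Genes of calcium handling fell more widely than any other pathway list but the medium spiny neuron markers. Calcium from synaptic channels and from the endoplasmic reticulum is buffered, pumped out and read by calmodulin, and medium spiny neurons express many of these genes strongly. The mean log2 CPM of this list was 7.28 to 7.33 in wild type libraries. In the most abundant of 5 equal groups of protein-coding genes 34.8% were lower, against 16.5% over all genes. Of the 51 genes of calcium handling 32 fell (62.7%), 4 rose and 15 did not pass, with a median of -0.17. Release channels of the endoplasmic reticulum were among them. Ryr1 (ENSMUSG00000030592, GRCm38 chromosome 7, 29003344 to 29125179), a ryanodine receptor, fell from 171 CPM (148 to 214) to 58.4 (54.3 to 87.2), a change of -1.44 ± 0.099 (adjusted p = 2.31e-15), 36.7% of the wild type mean. Itpr1 (ENSMUSG00000030102, GRCm38 chromosome 6, 108213096 to 108551109), the inositol trisphosphate receptor, fell from 1720.3 CPM (1580.0 to 1864) to 1265 (1219.7 to 1345), a change of -0.43 ± 0.031 (adjusted p = 2.17e-16). Neither gene's groups overlapped.

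Export and read-out of calcium followed. Atp2b1, a calcium pump of the cell membrane, stood at 2066 CPM (1809 to 2187) in wild type and 1457 (1379 to 1607) in Q140, a change of -0.46 ± 0.036 (adjusted p = 9.59e-15). Ppp3ca, the catalytic subunit of the calmodulin-dependent phosphatase calcineurin, fell from 2795 CPM (2636 to 2915) to 2142 (2002 to 2333), a change of -0.36 ± 0.028 (adjusted p = 3.62e-15), and Pcp4, a small calmodulin-binding protein, from 493 CPM (448 to 529) to 328 (309 to 379), a change of -0.56 ± 0.050 (adjusted p = 1.15e-12). The 8 libraries per group did not overlap in any of the 3. The pump gene Atp2b4 rose by 0.29 and the calcium sensor gene Vsnl1 by 0.27, both with overlapping groups. Neither passed in males alone (adjusted p = 0.153 and 0.245). Slc8a2, a sodium and calcium exchanger, fell by 0.37.

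**Figure D3:**
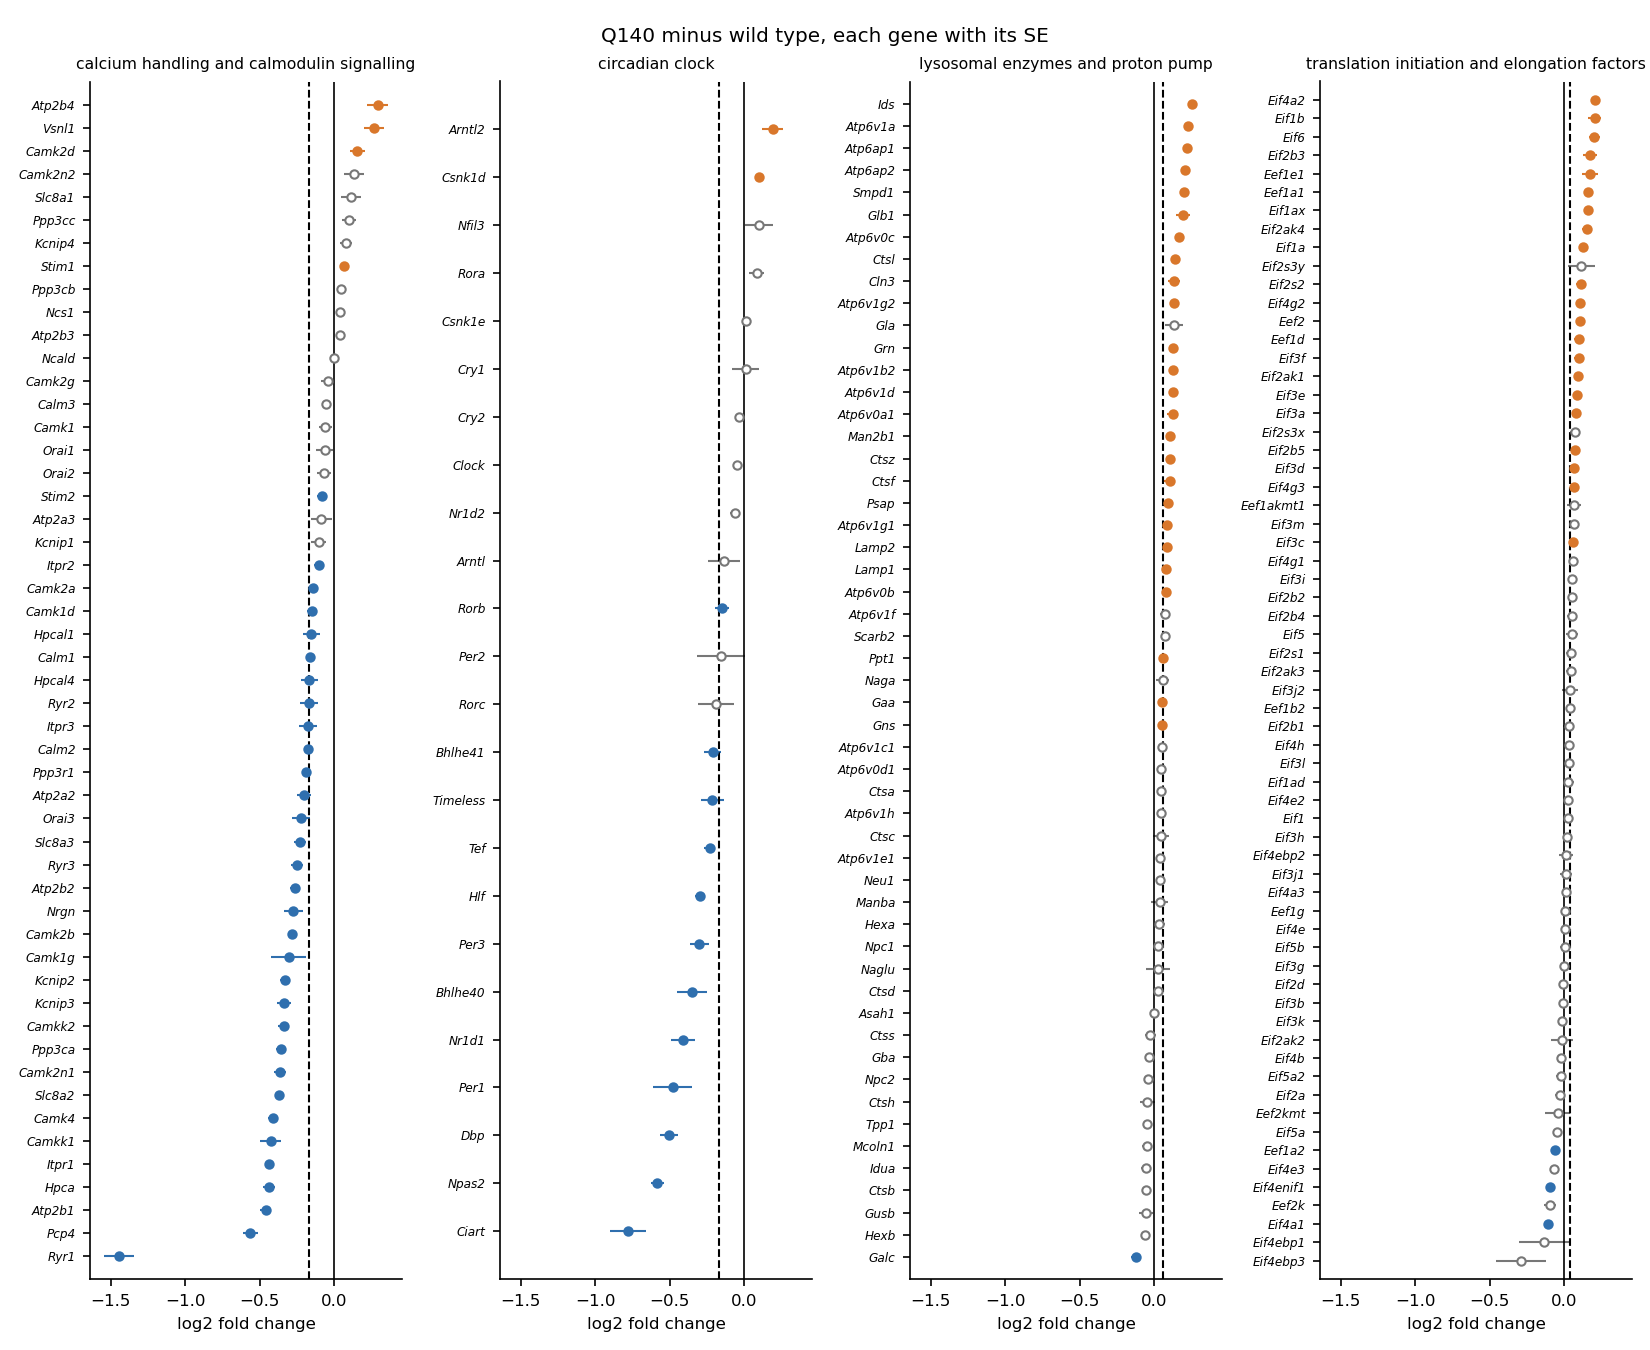
Log2 fold change (Q140 minus wild type) of every tested gene in 4 lists, ordered by size, with its standard error; filled points passed an adjusted p of 0.05 and open points did not, and the dashed line is the median of the list. Calcium handling has its median at -0.17 and the clock at -0.17, while lysosome and translation factors are shifted above 0 by small amounts, with medians of 0.059 and 0.042.

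Signalling genes downstream of these receptors also leaned downward. Of 33 genes of phospholipase C, diacylglycerol kinases and protein kinase C, 17 fell and 5 rose. Prkcb (ENSMUSG00000052889, GRCm38 chromosome 7, 122288751 to 122634402), protein kinase C beta, went from 829.9 CPM (797 to 928) to 622 (588 to 663), a change of -0.45 ± 0.032 (adjusted p = 2.42e-16) and Plcb1, the phospholipase of metabotropic receptors, from 575 CPM (544 to 609) to 450.5 (418 to 489), a change of -0.36 ± 0.035 (adjusted p = 5.08e-12), both without overlap. Dgkb fell by 0.30, while Dgke, another diacylglycerol kinase, rose by 0.19. Among 46 regulators of Ras and Rap, small GTPases that carry growth factor and calcium signals, 18 fell and 4 rose. Rap1gap, which switches Rap off, fell from 972 CPM (881 to 1031) to 666 (624 to 727), a change of -0.52 ± 0.036 (adjusted p = 1.87e-16). Rasgrp2, the calcium-dependent activator of Rap, fell from 455 CPM (417 to 474) to 289 (255 to 331), a change of -0.60 ± 0.048 (adjusted p = 4.45e-14). Both genes' groups were apart, and so were those of Rasl10a, a Ras-like GTPase, which fell by 0.99. Sos1, an activator of Ras, rose by 0.19.

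At the synapse, postsynaptic genes leaned downward and presynaptic genes were mixed. Of 35 genes of postsynaptic scaffolds 18 fell (51.4%) and 8 rose. Shank3 (ENSMUSG00000022623, GRCm38 chromosome 15, 89499623 to 89560261), a main scaffold of striatal excitatory synapses, fell from 682 CPM (649 to 752) to 476 (453 to 531), a change of -0.50 ± 0.033 (adjusted p = 1.80e-17), as did its partner Lzts3 described above. Ppp1r9b, which encodes the spine protein spinophilin, fell from 1417 CPM (1365 to 1476) to 1080.1 (984 to 1145), a change of -0.40 ± 0.025 (adjusted p = 3.16e-18). Neto2 (ENSMUSG00000036902, GRCm38 chromosome 8, 85636588 to 85700924), the auxiliary subunit of kainate receptors such as GluK2, fell from 195 CPM (183 to 243) to 116 (104 to 124), a change of -0.80 ± 0.055 (adjusted p = 5.47e-16). The groups were apart in all 3. Tanc1 rose by 0.36 and Grip1, an AMPA receptor anchor, by 0.25.

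Of 53 genes of vesicle release 16 rose (30.2%, against 18.2% over all genes) and 11 fell (20.8%, against 16.5%). Their mean log2 CPM was 6.94 to 7.00 in wild type libraries. In the most abundant of 5 equal groups of protein-coding genes 21.7% were higher and 34.8% lower. Beside Syp, the active zone gene Ppfia2 rose by 0.35 and the priming factor gene Unc13b by 0.37. Of the synaptotagmins, calcium sensors of vesicle fusion, Syt9 fell by 0.74 and Syt2, the fast sensor, from 112 CPM (94.8 to 145) to 72.9 (59.5 to 84.9), a change of -0.68 ± 0.11 (adjusted p = 4.54e-06), with no overlap in either. Adhesion molecules that bridge the synaptic cleft divided evenly, 17 higher and 18 lower of 67, which became 27 and 12 with total-count scaling. Slitrk6 (ENSMUSG00000045871, GRCm38 chromosome 14, 110748580 to 110755149) rose from 4.27 CPM (2.84 to 5.98) to 9.46 (8.13 to 10.6), a change of 1.06 ± 0.12 (adjusted p = 1.24e-09), and Lrrtm4, an organiser of excitatory synapses, by 0.35. The contactin-associated protein gene Cntnap3 fell from 44.3 CPM (39.8 to 54.7) to 24.7 (22.1 to 32.4), a change of -0.80 ± 0.093 (adjusted p = 3.14e-09) and the contactin gene Cntn5 by 0.64, so that 2 contactins, Cntn5 and Cntn6, moved in opposite directions. None of these 4 genes had overlapping groups.

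Cadherins and guidance receptors wire axons in development and stay on in the adult striatum. Of 19 Cdh genes 4 rose (21.1%) and 3 fell (15.8%), near the 18.2% and 16.5% over all genes, and 4 and 5 with the size factors of DESeq2. Cdh18 rose by 0.64 and Cdh10 by 0.37, both without overlap, while Cdh4 fell by 0.71. Among 22 ephrins and Eph receptors 3 rose and 3 fell (8 and 3 with total-count scaling), each 13.6%, below the 18.2% and 16.5% over all genes. The ligand gene Efnb3 lay at -0.34 ± 0.041 (adjusted p = 2.84e-09). For 33 semaphorins and their receptors 9 rose and 12 fell, an order that total-count scaling turned (9 and 6). Sema7a fell by 0.49 and the receptor gene Plxnd1 by 0.29, whereas its ligand gene Sema3e rose by 0.24. Of 20 netrin and Slit genes 8 rose and 5 fell (6 and 6 with the size factors of DESeq2), and the Slit receptor gene Robo1 rose by 0.24 with no overlap.

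Developmental signalling pathways leaned downward. Of 47 Wnt receptor and pathway genes 14 fell and 3 rose. Gsk3b (ENSMUSG00000022812, GRCm38 chromosome 16, 38089001 to 38246084), the kinase that marks beta-catenin for breakdown, fell from 431 CPM (403 to 443) to 321 (309 to 344), a change of -0.39 ± 0.028 (adjusted p = 2.11e-16), and the transcription factor gene Tcf7 from 23.2 CPM (19.8 to 27.9) to 15.1 (13.8 to 16.8), a change of -0.59 ± 0.057 (adjusted p = 5.93e-12). Ctnnb1, which encodes beta-catenin, rose by 0.097. The groups were apart in all 3. Of 46 TGF-beta and BMP genes 16 fell and 2 rose: the receptor genes Acvrl1 and Acvr1c fell by 0.67 and 0.60, the activin subunit gene Inhba by 0.60, and the activin receptor gene Acvr2a rose by 0.44. Of 28 Notch genes 10 fell and 2 rose, with the ligand gene Jag1 going from 18.8 CPM (14.7 to 21.4) to 9.18 (7.54 to 13.1), a change of -0.94 ± 0.11 (adjusted p = 3.74e-09) without overlap.

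Retinoic acid signalling supports the development of medium spiny neurons and their expression of dopamine receptors. In these libraries 10 of 23 genes of its synthesis and signalling fell while 1 rose. The receptor gene Rarb fell from 150.2 CPM (139 to 169) to 118 (94.8 to 126), a change of -0.39 ± 0.043 (adjusted p = 2.78e-10) and its partner Rxrg from 174 CPM (145 to 209.7) to 114 (102 to 129.9), a change of -0.61 ± 0.064 (adjusted p = 1.71e-10). The retinol carrier gene Rbp4 fell by 0.76 and Dhrs3, which turns retinal back into retinol, by 0.69, and the retinol dehydrogenase gene Rdh11 rose by 0.26. No groups overlapped in these 5 genes. Of 21 fibroblast growth factor genes 6 fell (28.6%, against 16.5% over all genes) and 4 rose (19.0%, near 18.2%), but 5 and 6 with total-count scaling. Fgf3 stood at 47.9% of the wild type mean (-1.07 ± 0.11, adjusted p = 1.85e-10). In insulin, PI3K and mTOR signalling 13 of 44 genes fell and 5 rose, but 10 and 13 with total-count scaling. Foxo1, the transcription factor that insulin restrains, fell from 184 CPM (168 to 193) to 133 (120.1 to 149.9), a change of -0.43 ± 0.044 (adjusted p = 6.84e-11), and Deptor, an inhibitor of mTOR, by 0.56.

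The circadian clock of the striatum runs on a loop of activators and repressors and on output factors that bind D-box elements. Of 24 clock genes 12 fell, 2 rose and 10 did not pass, with a median of -0.17. Npas2 (ENSMUSG00000026077, GRCm38 chromosome 1, 39193731 to 39363236), the forebrain activator of the loop, fell from 81.0 CPM (74.4 to 88.2) to 54.4 (49.9 to 59.2), a change of -0.58 ± 0.045 (adjusted p = 6.55e-15). The output factor genes fell too, Dbp from 230.1 CPM (201 to 241) to 161 (143 to 167), a change of -0.50 ± 0.061 (adjusted p = 6.15e-09) and Hlf from 336 CPM (326 to 347) to 269 (259 to 290.0), a change of -0.30 ± 0.030 (adjusted p = 1.64e-11). Ciart, a repressor with a strong daily rhythm, went from 36.3 CPM (28.5 to 52.3) to 21.6 (18.5 to 26.5), a change of -0.78 ± 0.12 (adjusted p = 1.07e-06) and Nr1d1, which encodes the repressor REV-ERB alpha, from 159 CPM (141 to 183) to 122 (101 to 135), a change of -0.41 ± 0.078 (adjusted p = 4.24e-05). The groups were apart in all 5 genes. The labels give no hour of dissection, and its part in these values was not tested. Of 39 nuclear receptor genes, a list that shares Nr1d1, Rarb and Rxrg with those above, 12 fell and 3 rose. The mineralocorticoid receptor gene Nr3c2 rose by 0.25 without overlap.

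Zinc finger genes, most of which encode sequence-specific repressors, rose more often than they fell. Of 363 Zfp-named genes 95 rose (26.2%) and 34 fell (9.37%), with a median of 0.048. Zfp7 rose from 3.39 CPM (2.34 to 4.33) to 6.09 (5.15 to 6.32), a change of 0.81 ± 0.083 (adjusted p = 2.49e-11), and Zfp180 fell from 108 CPM (103 to 122) to 79.8 (76.0 to 83.2), a change of -0.45 ± 0.030 (adjusted p = 2.61e-17), both without overlap. Many of these genes have close copies, between which the counting may have split reads.

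Among chromatin genes the balance of rises and falls differed between lists, each of which pools several activities. Of 38 genes of histone acetylation 13 rose and 3 fell. The deacetylase gene Hdac1 rose from 7.09 CPM (6.45 to 7.73) to 9.63 (8.58 to 10.1), a change of 0.42 ± 0.053 (adjusted p = 1.01e-08), while the deacetylase genes Hdac11 and Sirt7 fell by 0.21 and 0.20. Of 22 genes of DNA methylation 10 fell and 2 rose. The methyltransferase gene Dnmt3a fell from 192 CPM (187 to 208) to 165 (150.0 to 175), a change of -0.25 ± 0.033 (adjusted p = 1.84e-08), and Tet2, which oxidises methylcytosine, rose by 0.23, in each case without overlap. Histone methylation genes were split, 14 higher (21.2%) and 16 lower (24.2%) of 66, beside 18.2% and 16.5% over all genes. With total-count scaling 23 were higher and 11 lower. The demethylase genes Kdm3a and Kdm4b fell by 0.43 and 0.45, and the methyltransferase genes Suv39h1 and Smyd2 rose by 0.28 and 0.41. Chromatin remodellers were also split, 10 higher (21.7%) and 11 lower (23.9%) of 46 (20 and 8 genes with total-count scaling). Chd3, an ATPase of the NuRD complex, rose by 0.30, and the BAF complex genes Smarcd1 and Dpf1 fell by 0.29 and 0.31. Polr2a (ENSMUSG00000005198, GRCm38 chromosome 11, 69733997 to 69758637), the largest subunit of RNA polymerase II, rose from 91.4 CPM (86.8 to 96.3) to 129.9 (126 to 146), a change of 0.53 ± 0.042 (adjusted p = 2.07e-14) without overlap. In its list of 46 polymerase and Mediator genes 9 rose (19.6%, near the 18.2% over all genes) and 5 fell (10.9%, against 16.5%).

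Genes of protein synthesis leaned upward by small amounts. Of 64 initiation and elongation factors 21 rose and 3 fell, with a median of 0.042. Eif4a2, a helicase of initiation, rose from 489.7 CPM (455 to 511) to 568 (536 to 581), a change of 0.21 ± 0.021 (adjusted p = 2.28e-11) and Eef1a1, the factor that brings tRNA to the ribosome, from 1217 CPM (1166 to 1245) to 1355 (1322 to 1389), a change of 0.16 ± 0.023 (adjusted p = 1.46e-07). Of 39 aminoacyl-tRNA synthetases 16 rose and 2 fell, with Aars at 0.19 ± 0.022 (adjusted p = 1.48e-09) and Kars at -0.19 ± 0.026 (adjusted p = 4.45e-08). Of 77 mitochondrial ribosomal proteins 17 rose and 3 fell, the rises being 22.1% against 18.2% over all genes, and Mrpl33 rose by 0.26. The 80 cytosolic ribosomal proteins gave 7 rises and 6 falls, a called share of 16.2% against 34.7% over all genes, and 5 and 6 with the size factors of DESeq2. They have many processed copies in the genome, and their counts are uncertain for that reason. Of 95 splicing factors 17 rose (17.9%) and 18 fell (18.9%), near the 18.2% and 16.5% over all genes, but 42 and 8 with total-count scaling. Among them 3 genes of the CELF family of RNA-binding proteins fell, Celf1 by 0.35, Celf3 by 0.36 and Celf5 by 0.30, while Nova1, another neuronal splicing regulator, rose by 0.22.

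Genes of the lysosome and of protein breakdown leaned upward. Of 53 genes of lysosomal enzymes and of the proton pump that acidifies the lysosome, 25 rose (47.2%), 1 fell and 27 did not pass, with a median of 0.059. Ids (ENSMUSG00000035847, GRCm38 chromosome X, 70343069 to 70365084), the iduronate sulfatase that degrades glycosaminoglycans, rose from 467 CPM (438 to 474) to 552 (515 to 581), a change of 0.25 ± 0.024 (adjusted p = 2.30e-12). The proton pump genes Atp6v1a, Atp6ap1 and Atp6ap2 rose by 0.22, 0.22 and 0.21, and none of these 4 genes had overlapping groups. The 1 gene that fell was Galc, an enzyme of myelin lipid breakdown, at -0.12 ± 0.034 (adjusted p = 0.00298). It did not pass in females alone or with total-count scaling (adjusted p = 0.212 and 0.147).

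Of 47 proteasome genes 12 rose and 0 fell in edgeR (1 at an unadjusted p under 0.05, and 1 in DESeq2). The largest rises were those of 2 genes that interferon also induces, the activator subunit gene Psme1 from 15.7 CPM (14.2 to 19.2) to 21.0 (19.9 to 23.0), a change of 0.40 ± 0.049 (adjusted p = 3.25e-09) and the catalytic subunit gene Psmb10 from 5.08 CPM (3.86 to 5.84) to 6.38 (5.91 to 6.96), a change of 0.37 ± 0.072 (adjusted p = 5.07e-05), both without overlap. Rises elsewhere in the list were smaller, such as Psmd6 at 0.16 ± 0.027 (adjusted p = 4.58e-06), which did not pass in females alone (adjusted p = 0.0599). Of 30 ubiquitin-conjugating enzymes 9 rose (30.0%, against 18.2% over all genes) and 4 fell (13.3%, against 16.5%). Autophagy genes were split, 11 higher (23.9%, against 18.2% over all genes) and 9 lower (19.6%, against 16.5%) of 46. With the size factors of DESeq2 these counts were 9 and 10. The cargo receptor gene Sqstm1 went from 360.4 CPM (348 to 370.3) to 399 (394 to 408), a change of 0.15 ± 0.022 (adjusted p = 1.51e-07). The starting kinase gene Ulk1 rose by 0.15. The autophagy initiation gene Atg14 fell by 0.19.

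Of 32 genes of the tricarboxylic acid cycle and pyruvate entry 12 rose and 2 fell. Idh3a, a subunit of isocitrate dehydrogenase, rose from 135 CPM (128 to 138) to 159 (152 to 166), a change of 0.24 ± 0.023 (adjusted p = 4.83e-12), and Pdha1, of pyruvate dehydrogenase, by 0.18, in both without overlap. Pyruvate carboxylase (Pcx), which in the brain is an enzyme of astrocytes, fell by 0.21. In glycolysis 9 of 24 genes rose and 5 fell: Pfkl, the liver-type phosphofructokinase, rose by 0.25 and the enolase gene Eno1 fell by 0.18. Of 33 sphingolipid genes 8 rose (24.2%, against 18.2% over all genes) and 6 fell (18.2%, near 16.5%). The ceramide desaturase gene Degs1 rose by 0.23, and Fa2h, an enzyme of myelin lipids made in oligodendrocytes, fell by 0.27 but did not pass in females alone (adjusted p = 0.119). Of 52 fatty acid and phospholipid genes 14 rose (26.9%, against 18.2% over all genes) and 8 fell (15.4%, near 16.5%). The phosphatidylcholine enzyme gene Pcyt1b stood at 0.32 ± 0.028 (adjusted p = 4.38e-13) and the desaturase gene Fads1 at -0.14 ± 0.021 (adjusted p = 2.58e-07).

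Of 16 tubulin genes 8 rose, 1 fell and 7 did not pass. Tubb2a went from 105 CPM (102 to 109.5) to 136 (127 to 141), a change of 0.36 ± 0.034 (adjusted p = 2.89e-12) without overlap. Tubulin genes are close in sequence, so reads may be split among them. Of 43 kinesin genes, motors that walk along microtubules, 9 rose (20.9%, near the 18.2% over all genes) and 5 fell (11.6%, against 16.5%). Kif17, the motor of NMDA receptor vesicles in dendrites, fell from 82.1 CPM (74.7 to 91.4) to 66.4 (62.1 to 69.7), a change of -0.30 ± 0.028 (adjusted p = 1.25e-12), and Kifap3, the adaptor of kinesin 2, rose by 0.15. Microtubule-associated genes were split, 10 higher (25.0%) and 9 lower (22.5%) of 40, beside 18.2% and 16.5% over all genes. Among 53 Rab GTPases, which label vesicles for traffic, 17 rose and 8 fell, with Rab9b at 0.42 ± 0.043 (adjusted p = 3.08e-11) and Rab15 at -0.23 ± 0.022 (adjusted p = 2.46e-12). Of 294 solute carriers 64 rose (21.8%) and 49 fell (16.7%), near the 18.2% and 16.5% over all genes. Slc4a11 fell to 31.5% of the wild type mean (-1.66 ± 0.13, adjusted p = 2.33e-14), the taurine transporter gene Slc6a6 from 398 CPM (382 to 444) to 285 (250.4 to 331), a change of -0.50 ± 0.051 (adjusted p = 5.52e-11), and the mitochondrial carrier gene Slc25a23, which calcium regulates, by 0.29.

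In the extracellular matrix 7 of 43 collagens fell (16.3%, near the 16.5% over all genes) and 4 rose (9.30%, against 18.2%). Of 47 laminins and proteoglycans 11 fell (23.4%) and 4 rose (8.51%), but 5 and 5 with total-count scaling. Of 53 matrix proteases and inhibitors 13 fell (24.5%) and 6 rose (11.3%). Spock3, a neuronal proteoglycan, fell from 612 CPM (571 to 639) to 473 (432 to 497), a change of -0.37 ± 0.029 (adjusted p = 1.57e-14). Adamts2, which trims procollagen, fell by 0.67 and Adamts6 rose by 0.68, and Col11a1 and Col6a2 rose by 0.54 and 0.42. Of 16 markers of cycling cells and neuroblasts 2 rose (12.5%, against 18.2% over all genes) and 0 fell (0 at an unadjusted p under 0.05). The list median was -0.18, opposite in sign to the 2 rises. The 2 were Cenpe, by 0.40, and Sox11, a transcription factor of immature neurons. Sox11 went from 16.8 CPM (14.7 to 22.5) to 28.9 (25.3 to 32.9), a change of 0.69 ± 0.097 (adjusted p = 2.44e-07) without overlap. The neuroblast marker Dcx lay at 24.1 to 38.9 CPM in wild type and 27.7 to 41.7 in Q140 and did not pass (adjusted p = 0.167).

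**Figure D4:**
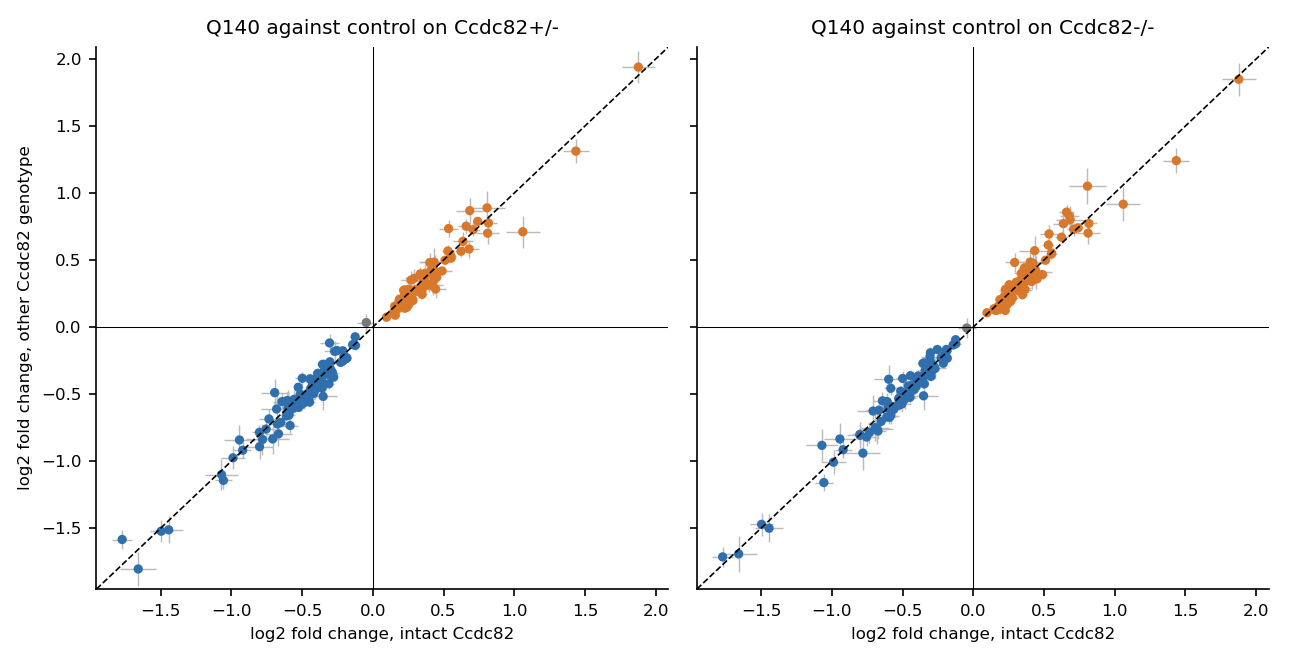
Log2 fold change of Q140 against its control for the 175 genes named in the text, with intact Ccdc82 (horizontal axis) against Ccdc82+/- (left) and Ccdc82-/- (right), each a comparison of its own mice; bars are standard errors, the dashed line marks equal changes, and orange, blue and grey mark genes higher, lower and not called with intact Ccdc82. The genes were named for their change with intact Ccdc82, so their place on the horizontal axis is fixed by that choice; 174 and 174 of the 174 that passed there have the same sign on the other 2 genotypes.

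The called genes named above kept their direction in the other mice of the series. Most were named for a small p or a large change, so their recurrence does not stand for that of all called genes. Over all 6655 called genes 97.9% and 98.0% had the same sign on Ccdc82+/- and Ccdc82-/-. The same call was made there for 75.7% and 73.4%. Of the 174 named genes that passed with intact Ccdc82, 174 had the same sign on Ccdc82+/- and 174 on Ccdc82-/-, and 172 and 174 passed there in the same direction. Stmn2 stood at 0.79 on Ccdc82+/- and 0.74 on Ccdc82-/-, Kcnh4 at -0.92 and -0.92, Ryr1 at -1.51 and -1.50, Npas2 at -0.56 and -0.46, and Ids at 0.26 and 0.27. These genes are examples, and their values with intact Ccdc82 were 0.74, -0.92, -1.44, -0.58 and 0.25 in the same order.

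Across gene classes, protein-coding genes split into 20.8% higher and 17.9% lower of 15066. Sorted into 5 equal groups by mean level, the most abundant leaned downward with TMM scaling: 34.8% were lower and 21.7% higher, against 14.0% and 27.6% in the middle group and 9.19% and 7.17% in the least abundant. The median change of the most abundant group was only -0.021. With total-count scaling the median of all genes moved to 0.056, and the shares by level and length were not computed with it. Sorted by the length of the gene from start to end, the longest group had 22.8% lower and 19.6% higher, and the shortest 15.3% and 19.4%. The median change of the longest group was -0.016. Length and level go together, and within the most abundant group the longest genes were 40.1% lower and 16.4% higher (n = 933), the shortest 29.1% and 28.2% (n = 316). Among annotated noncoding classes, TEC loci (transcribed regions awaiting experimental support) were 18.2% lower and 4.73% higher of 592, and antisense genes 14.2% and 9.66% of 621. Whether the deposited counts used strand is not given in the sources used here, so reads of antisense genes may come from their partners. Exons of Gng3, Rarb, Nr1d1, Acvr2a and Htr1b overlap on the other strand those of Bscl2, Top2b, Thra, Orc4 and D430036J16Rik, in that order, and their values are uncertain for the same reason. Gprasp2 shares 8.28% of its exon bases with Bhlhb9 on the same strand, a gene of similar level, and its value is uncertain too. Processed pseudogenes were 9.97% higher and 6.26% lower of 1183, and their reads cannot be told apart from those of the parent genes where the copies are alike.

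**Figure D5:**
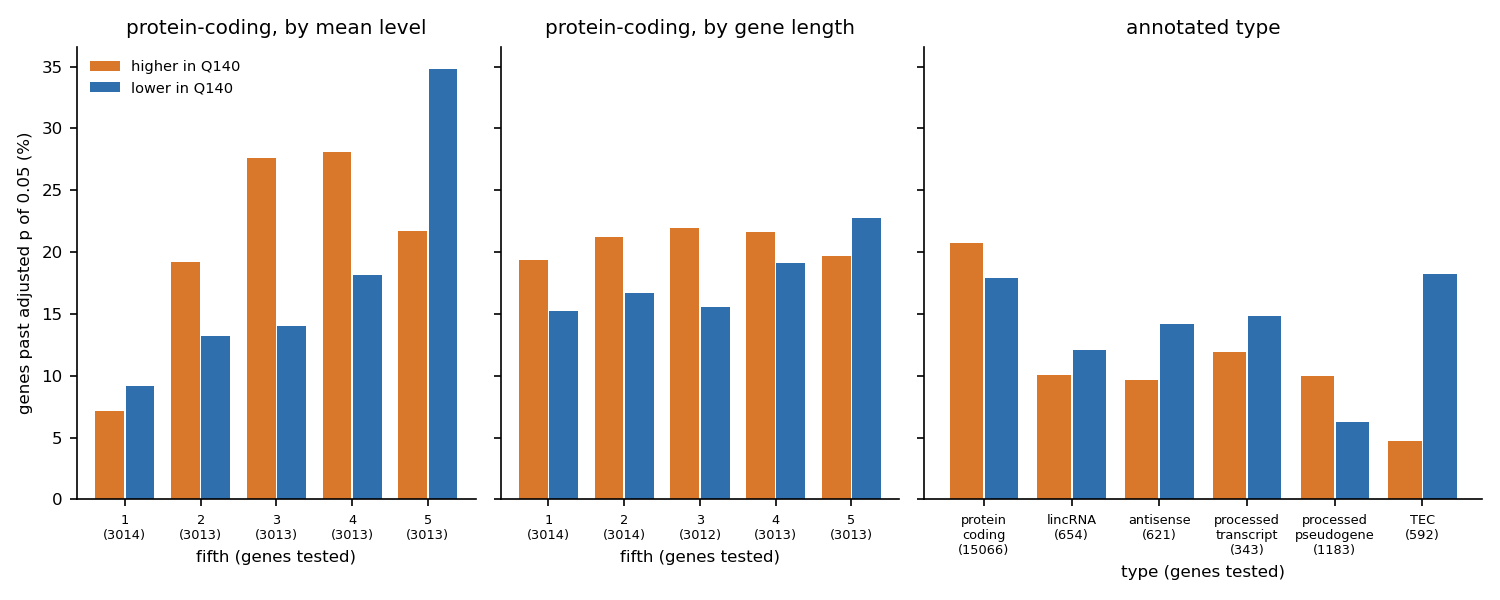
Share of genes higher (orange) and lower (blue) in Q140 at an adjusted p of 0.05, in percent of the genes tested in each class, for protein-coding genes in 5 equal groups by mean level and by gene length (1 is the lowest or shortest) and for annotated gene types. The blue bar overtakes the orange one in the most abundant group (34.8% against 21.7%) and in the longest group (22.8% against 19.6%). All shares are with TMM scaling and were not computed with total-count scaling.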

How the data were processed

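Striatal RNA of 47 mice was sequenced, and the 8 wild type and 8 Q140 libraries with intact Ccdc82 were compared. Replicates are separate titles with a sex and number, and the labels do not say in words that each is a different animal, so p-values measure the spread between these samples. Column names carry a number that some libraries share, both across groups and within the Q140 group. Some Q140 females share this number with each other, and so do some Q140 males. No wild type library shares its number with another wild type library. The labels do not say what this number marks, and it was not used in a fit. Whether libraries with the same number are independent of each other was not tested. This bears on the spread of the Q140 group, the p-values and the counts of genes without overlap. The authors deposited a table of raw read counts per gene, and a table of FPKM values that equals those counts divided by the library total and the gene length. Per the submitters' processing notes, STAR 2.7.5c, SAMtools 1.10 and HTSeq 0.12.3 were used on GRCm38 (mm10). The gene annotation and strand setting of the counting are not given in the sources used here. Whole-number counts carry no correction for gene length, multi-mapping copies or composition, so each change compares a gene only with itself. Where levels of different genes are ranked, summed or set side by side, they also reflect gene length.

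Counts of all 47 libraries were fitted in edgeR 4.0.16 (R 4.3.3), with 1 coefficient for each of 6 genotype groups and a term for sex. The filterByExpr filter, TMM scaling and the robust quasi-likelihood test were used, after a test on simulated counts. In the simulated counts few genes changed, with rises and falls in equal number, so that test cannot check the choice of scaling. Calls are at a Benjamini-Hochberg adjusted p of 0.05 over 19193 of 48795 genes. Positions are from GENCODE M21, which holds 48349 of the genes, and promoters from RefSeq. Alternatives were DESeq2 1.42.0, other scalings and filters, each sex, the plate column and row, a replicate block, the 16 libraries alone, and leaving out each library. The 64 gene lists and the genes compared were chosen with earlier results of these data known. Named genes are the 12 higher and 12 lower with the smallest p (mean log2 CPM of at least 1, no medium spiny neuron marker), from each list up to 4 with the smallest p and up to 3 with the largest rise and fall, the genes of the printed promoters, and Htt and Ccdc82, with some left out for length or not reported here. Lists are described by counts and medians without a test, and their counts are to be read beside the 18.2% higher and 16.5% lower over all genes. Those shares are not matched to level. In the most abundant of 5 equal groups of protein-coding genes 21.7% were higher and 34.8% lower. In the least abundant group the shares were 7.17% and 9.19%. Lists were not compared with genes of like level. Mitochondrial shares were compared with an exact permutation test (scipy 1.17.1).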

Additional observations from a re-analysis of the deposited data

Results flagged for a closer look

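In each group of 8 libraries the gap between the highest or lowest library and its nearest neighbour was divided by the range of the group. Over 352 groups (each gene named in the text, and the mitochondrial share), 16 passed the 95% limit for a single outlying library, and chance passes about 1 in 20 groups. No library accounted for more than 3 of them.

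Among wild type libraries, Ids was lowest in male 1 (438 CPM, group median 467, gap of 0.732 of the range), and Htr2a was highest there (16.4 CPM, median 11.7, gap 0.608). Female 1 was highest for Tns1 (105 CPM, median 94.0, gap 0.636) and lowest for Cdh18 (6.78, median 8.36, gap 0.616) and Galc (31.5, median 36.4, gap 0.598). Female 2 had the highest mitochondrial share (6.02%, median 5.68%, gap 0.627). Tet2 was highest in female 3 (86.6 CPM, gap 0.547), Slc6a6 in male 2 (444 CPM, gap 0.541) and Cntnap3 in male 3 (54.7 CPM, gap 0.572).

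Among Q140 libraries, male 4 was lowest for Gprasp2 (142 CPM, median 155, gap 0.608) and Atp6v1a (286, median 308, gap 0.528). Rarb was lowest in male 2 (94.8 CPM, median 118, gap 0.627), Hdac11 in male 3 (174 CPM, gap 0.583) and Cdh10 in male 1 (35.1 CPM, gap 0.557). Polr2a was highest in female 1 (146 CPM, median 129.9, gap 0.604) and Col6a2 in female 2 (39.7 CPM, gap 0.535).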

How the results depend on the processing

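The count of called genes (6655) stayed within 1.5 times under DESeq2, other scalings and filters, the plate terms and the 16 libraries alone, and was 6234 to 6633 without single libraries. Small lists moved more: without single libraries the higher genes ranged down to 4 of netrin and Slit guidance and 3 of cytosolic ribosomal proteins, and over 3 to 8 of phospholipase C and protein kinase C. The other list counts that moved by over 1.5 times stood at 5 genes or fewer with all libraries, or are given with the cell markers. With 4 libraries a group it was 4321 in females (2178 higher) and 3922 in males (1932 higher, 1990 lower), where fewer samples were fitted. Total-count scaling moved the median of all genes to 0.056 and gave 5933 higher genes. The mitochondrial share differed by 0.289 percentage points in females alone (exact permutation p = 0.0857, n = 4 per group) and by 0.312 in all.

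Replicate numbers did not pair the libraries: 0 of 8 same-number correlations passed 0.1 (-0.42 to 0.091), and 1 library pair matched its own number best. With the replicate block 6647 genes were called. The difference between sexes then passed for 2 genes, Med29 and Bves, as also in DESeq2 (2), an alternative added after seeing the data. Without wild type male 1 it passed for Bves, so that the count ranged over 0 to 1 without single libraries. In DESeq2 the difference between Ccdc82+/- and intact passed for 1 gene, Gm10123 (adjusted p = 0.00813). These 3 genes were chosen after their values were seen, and the cause was not tested.

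Of 4725 pairs of a named gene and a setting, 4714 kept direction and call, 9 lost the call and 2 reversed, both of Ccdc82 (0.011 in females, 0.010 with total counts). The median of a list changed sign in females to 0.091 (serotonin receptors), 0.027 (synaptic vesicle release), 0.0031 (synaptic adhesion), -0.012 (splicing factors). With total-count scaling the sign-changed medians were 0.056 (synaptic vesicle release), 0.033 (synaptic adhesion), 0.034 (classical and other cadherins), 0.00058 (semaphorins and plexins and neuropilins), 0.026 (netrin and Slit guidance), 0.016 (fibroblast growth factors and receptors), 0.0013 (insulin and PI3K and mTOR signalling), 0.053 (chromatin remodelling ATPases and subunits), 0.040 (sphingolipid and ganglioside synthesis), 0.056 (neurofilaments and microtubule-associated proteins), 0.054 (Slc-named solute carriers), 0.020 (matrix proteases and inhibitors). In males the sign-changed medians were 0.034 (sphingolipid and ganglioside synthesis), 0.014 (cortical excitatory neurons). Without single libraries the median of synaptic adhesion lay between -0.022 and 0.0016. The cause was not tested. Depth and the spread between libraries together gave a median SE of 0.0427 over 13938 genes whose mean log2 CPM was 1 or more, which limits the precision of a change.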

Other observations

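A larger share of protein-coding genes was higher in Q140 on the X chromosome than on the autosomes. This pattern was noticed after the values were seen, and it has no test across genes, which are not independent replicates. Of 529 X-linked genes 34.4% were higher and 11.3% lower, with a median change of 0.065, against 20.3% and 18.1% of 14519 autosomal genes with a median of 0.00036. In females alone 27.6% of X-linked genes were higher and 6.05% lower (autosomes 12.6% and 12.9%), and in males alone 21.7% and 6.81% (autosomes 11.3% and 11.6%). In the libraries labelled Ccdc82+/- the X-linked shares were 37.6% and 9.83% (autosomes 20.2% and 19.1%), and in those labelled Ccdc82-/- 34.2% and 10.6% (autosomes 19.2% and 18.1%). With the size factors of DESeq2 in edgeR they were 33.5% and 11.5% (autosomes 19.1% and 18.8%), and with total counts 49.5% and 6.99% (autosomes 34.7% and 11.9%). Among 5 equal groups by level, the next to most abundant had 52.2% of X-linked and 27.1% of autosomal genes higher, and the least abundant 8.85% and 7.11%.

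The X-linked families named Bex, Tceal, Armcx, Gprasp and Mage, picked after the values were seen, held 22 tested genes, of which 17 rose, 0 fell and 5 did not pass, with a median of 0.19, beside 34.4% higher over all X-linked protein-coding genes and 18.2% over all genes tested. Their members are alike in sequence, so reads may be split among them. Besides Gprasp2, the smallest p belonged to Gprasp1, at 577 to 618 CPM in wild type and 690.0 to 765 in Q140 (0.30 ± 0.023, adjusted p = 5.75e-15). Armcx4, of the armadillo repeat family, lay at 52.7 to 60.6 CPM in wild type and 69.9 to 77.9 in Q140 (0.38 ± 0.031, adjusted p = 4.10e-14), Tceal3 at 63.9 to 70.3 CPM in wild type and 78.6 to 86.5 in Q140 (0.28 ± 0.024, adjusted p = 9.74e-14), Bex2 at 149.8 to 166 CPM in wild type and 182 to 197 in Q140 (0.26 ± 0.024, adjusted p = 1.43e-12), and Maged1, an adaptor of neurotrophin receptor signalling, at 449.7 to 497 CPM in wild type and 535 to 566 in Q140 (0.21 ± 0.020, adjusted p = 5.93e-12). The 8 libraries per group did not overlap in any of these 5 genes.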
